A study of Homo sapiens with 6 samples.

Results

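Most miRNA hairpins are cut into a duplex of 2 arms, named -5p and -3p after their place in the hairpin, and one arm is usually recovered more often than the other. The less abundant arms of 18 hairpins are described here, in small extracellular vesicles (EVs) released by Cal27 spheroids. Cal27 is a human oral squamous cell carcinoma line. The spheroids grew by liquid overlay on growth factor-reduced Matrigel, a basement membrane gel, at 3 mg/mL (soft, EV_soft) or 12 mg/mL (stiff, EV_stiff), in medium whose serum had been depleted of EVs. On day 14 the EVs were isolated from the medium by dielectrophoresis, which traps particles in an electric field. Small RNA was sequenced from 3 EV samples of each group, labelled as biological replicates, and p-values measure only the spread between these samples. All 6 samples come from one untreated cell line, and the gels differ in Matrigel concentration as well as in stiffness.

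Members were chosen by their read counts, as the arm with fewer reads, summed over the 6 libraries, of every hairpin whose 2 arms had the same name apart from the suffix and at least 10 reads each. Of 80 hairpins with both arms listed, 23 met this limit, and 5 of these (miR-423, miR-30a, miR-200b, miR-125a and miR-30e) were left out by name. The 18 that remained had 11 minor arms on the 5p side and 7 on the 3p side. Which arm was minor, and that its ratio to the other arm is low, follow from these sums and are no finding. The EV_soft libraries held more reads, and so weighed more in the sums. Just inside the limit was miR-27b-5p with 12 reads, and just outside it, among hairpins not left out by name, were miR-141-5p with 9 reads and miR-342-3p with 8.

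In the cell, Drosha and Dicer release the duplex from its precursor, and an Argonaute protein keeps one strand as the guide while the other, the passenger strand, is discarded and degraded. The strand whose 5′ end is less tightly paired, and which begins with U or A, tends to be kept. A guide finds its targets mainly through its seed, bases 2 to 8, so that the 2 arms of a hairpin address different mRNAs. A ratio of the arms compares RNAs cut from the same precursor and counted in the same library, which makes it independent of the scaling between libraries.

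The mature sequences of 33 of the 36 arms were matched by name in RefSeq (GRCh38.p14). The following arms are shown because their ratios differed most between the groups, or because they hold the most minor arm reads. Those of miR-23b are shown because the order of its arms differed between libraries. It differed for miR-574 as well, whose arms are not shown. Capitals mark the seed, and sequences run 5′ to 3′.
miR-361-5p (minor): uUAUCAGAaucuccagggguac
miR-361-3p (major): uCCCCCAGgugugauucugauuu
miR-221-3p (major): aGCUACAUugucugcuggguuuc
miR-23a-5p (minor): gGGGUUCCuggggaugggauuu
miR-23b-5p (major): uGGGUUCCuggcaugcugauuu
miR-23a-3p (major): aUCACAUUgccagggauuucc
miR-23b-3p (minor): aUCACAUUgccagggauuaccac
let-7d-3p (minor): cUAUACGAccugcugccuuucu
let-7d-5p (major): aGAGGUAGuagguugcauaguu
The 3p arms of miR-23a and miR-23b share a seed, and so do their 5p arms. Over the 21 bases that both 3p arms have, the substitution from miR-23b-3p to miR-23a-3p is A19U, counted from the 5′ end.

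The hairpin of miR-361 (RefSeq, GRCh38.p14, chromosome X from 85903636 to 85903707, minus strand) lies in an intron of CHM, a protein-coding gene. It is shown with both arms in capitals, the 5p arm first, because its ratio is described in detail further on.
MIR361: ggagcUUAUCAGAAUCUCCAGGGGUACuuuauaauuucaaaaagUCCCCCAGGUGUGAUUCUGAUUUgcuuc
The hairpin of miR-221 (chromosome X, 45746157 to 45746266, minus strand) overlaps an exon of MIR222HG, a lncRNA. The let-7d hairpin (chromosome 9, 94178834 to 94178920, plus strand) overlaps an exon of MIRLET7A1HG, also a lncRNA. The hairpins of miR-23a (chromosome 19 from 13836587 to 13836659) and miR-27a (from 13836440 to 13836517) lie side by side in exons of the lncRNA MIR23AHG. Their paralogs miR-23b and miR-27b lie on chromosome 9 in an intron of AOPEP.

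Both arms of 15 hairpins had a sequence. Of these, 2 minor arms (miR-361-5p and miR-106b-5p) and 9 major arms began with U, and 6 minor and 3 major arms began with A, so that 8 minor and 12 major arms began with either. Over all 418 miRNA names of the count table that were matched, 46.4% began with U. The number of A and U among the first 4 bases was higher in the major arm of 7 hairpins and in the minor arm of 8, so this simple count did not set the arms apart. The median GC content was 50% in the minor and 47.8% in the major arms.

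The total miRNA count was 45858, 39211 and 66345 reads in the EV_soft libraries and 30685, 28688 and 29713 in the EV_stiff libraries, so every EV_soft library was deeper. Of the squamous epithelial marker list, which includes miR-205-5p and miR-203a-3p, 7 of 7 miRNAs had reads. That list held 6.41% to 7.14% of the reads in EV_soft and 5.17% to 5.36% in EV_stiff. Of a list of blood and serum miRNAs, 6 of 8 had a read, and together they held 0.326% to 0.610% of the reads in EV_soft and 0.656% to 0.927% in EV_stiff. A stromal and endothelial list (5 of 6 with a read) held at most 0.0236% in any library. The part of these lists in the arm ratios was not tested.

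By the way they were chosen the minor arms had few reads. Together the 18 had 1154 reads, against 88550 of their major arms, and 12 of them had 30 reads or fewer over all libraries. The share of a hairpin's reads that came from the minor arm ran from 0.0460% for let-7b to 41.1% for miR-23b, with a median of 6.95%. In 6 hairpins (miR-221, miR-27a, miR-27b, let-7a, let-7b and miR-21) it was under 1%, and in 4 (miR-23b, miR-99b, let-7d and miR-361) it was over 20%. A read was present in every library for 10 of the 18, and 10 or more reads in every library for let-7d-3p and miR-22-5p only. A count of 0 allows up to 3 reads, and intervals and limits given here cover counting error only, since PCR makes several reads of 1 molecule.

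**Figure D1:**
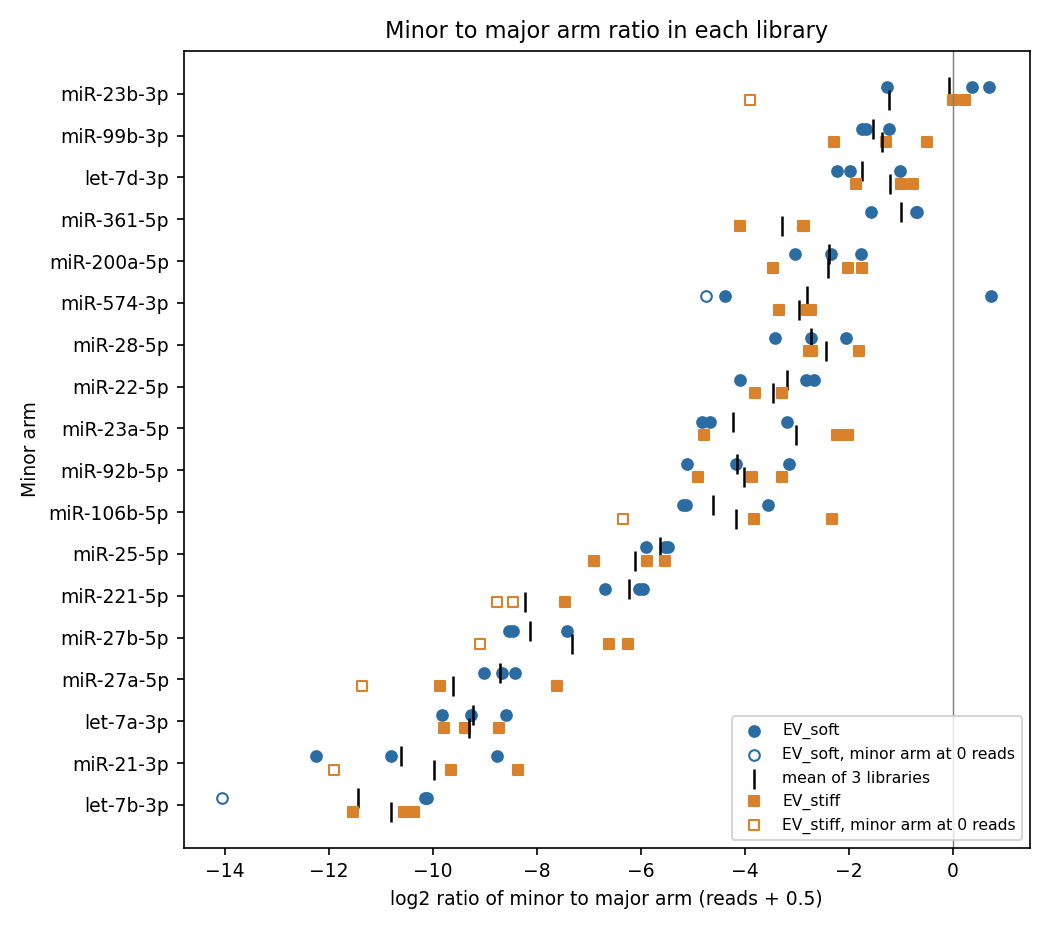
Log2 ratio of minor to major arm reads (each plus 0.5, horizontal axis) for the 18 minor arms, in the 3 EV_soft (circles) and 3 EV_stiff libraries (squares). Open symbols are libraries with 0 minor arm reads and vertical ticks are group means. The groups are apart only for miR-361-5p and miR-221-5p.

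Pooled over the 18 hairpins, the minor arms gave 1.11%, 1.71% and 1.09% of the reads of both arms in the EV_soft libraries. The EV_stiff libraries gave 1.38%, 1.47% and 1.19%. The means of 1.30% ± 0.354 (SD, n = 3) and 1.35% ± 0.145 (SD, n = 3) differed by less than the spread between replicates. EV_soft replicate 2 was the highest of all 6 libraries. let-7d held 40.4% of all minor arm reads. Without let-7d the shares were 0.813%, 0.941% and 0.757% in EV_soft and 0.662%, 0.699% and 0.767% in EV_stiff. They overlapped only between replicate 3 of EV_soft and replicate 3 of EV_stiff. Their means were 0.837% ± 0.0943 (SD, n = 3) and 0.709% ± 0.0532 (SD, n = 3). The difference of -0.13 percentage points was larger than either SD, opposite in sign to that with let-7d, and was not tested. The log2 ratio was lower in EV_stiff for 9 of the 18 hairpins and higher for 9, with a median difference of 0.05, while the median over all 23 hairpins was 0.30.

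**Figure D2:**
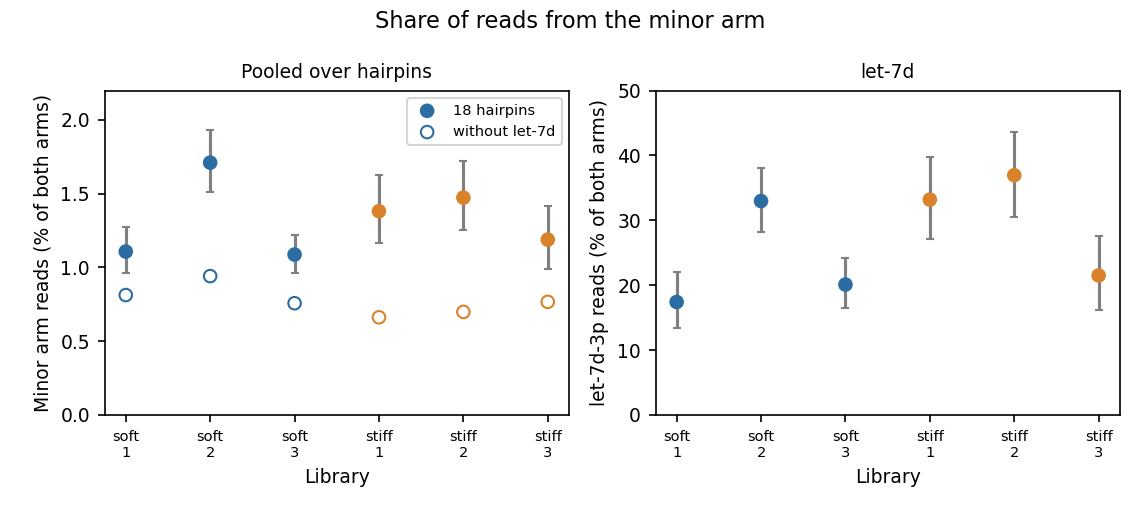
Minor arm reads as a percentage of the reads of both arms in each library (EV_soft blue, EV_stiff orange), pooled over 18 hairpins (left) and for let-7d (right). Filled points have exact 95% binomial intervals, and open points leave out let-7d. EV_soft replicate 2 has the highest pooled share, 1.71%, and 33.0% for let-7d.

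Whether the matrix moved the balance of the arms was tested hairpin by hairpin. The arm by matrix interaction was fitted with edgeR's quasi-likelihood test over all 23 hairpins, with a term for each library and Benjamini-Hochberg adjustment. None of the 18 hairpins had an adjusted p of at most 0.05. Limma on the log2 ratios and DESeq2 called 0 of them as well. At an unadjusted p under 0.05, 2 of the 18 passed with each of the tools, miR-361 and miR-221. With DESeq2 their adjusted p was 0.0505 for miR-361 and 0.183 for miR-221, and with limma it was 0.0809 for both. Over all 23 hairpins edgeR called 8.7%, and 21.7% had an unadjusted p under 0.05. The called hairpins were miR-30a and miR-125a, both left out by name, so these shares are no unbiased background for the 18.

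**Figure D3:**
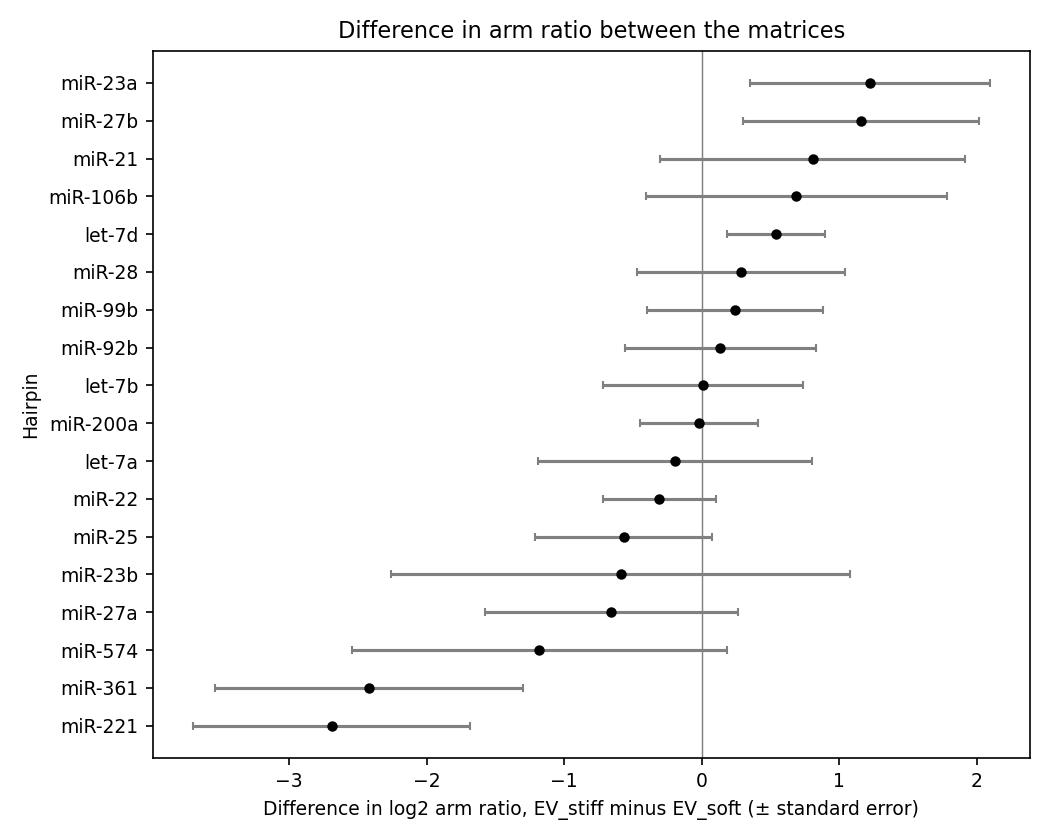
Difference in log2 minor to major arm ratio between EV_stiff and EV_soft (horizontal axis, edgeR estimate) for the 18 hairpins. Bars are standard errors. Estimates run from -2.69 for miR-221 to 1.22 for miR-23a.

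The miR-361 hairpin had the largest difference among those with 30 or more minor arm reads. Its minor arm met this limit through EV_soft, with 33 reads there and 6 in EV_stiff. Its low count in EV_stiff is thus tied to how it was picked, and the values below are a description. miR-361-5p had 12, 11 and 10 reads in the EV_soft libraries and 1, 2 and 3 in the EV_stiff libraries. Its other arm, miR-361-3p, had 20, 18 and 31 reads in EV_soft and 25, 18 and 25 in EV_stiff. The minor arm was thus low in all 3 EV_stiff libraries with no overlap. Raw reads of the major arm were alike in both groups, but in the shallower EV_stiff libraries they stood for a higher level, 647 to 901 CPM (reads scaled to library size after TMM normalization) against 439 to 463 CPM in EV_soft, so both arms enter the difference in ratio. The share of miR-361-5p was 37.5%, 37.9% and 24.4% in EV_soft, and 3.85%, 10% and 10.7% in EV_stiff. The exact 95% binomial interval was 12.4% to 40.3% for the lowest EV_soft share and 2.27% to 28.2% for the highest EV_stiff share, so single libraries overlap in counting error.

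The log2 ratio of miR-361-5p to miR-361-3p was -0.99 ± 0.51 (SD, n = 3) in EV_soft and -3.28 ± 0.70 (SD, n = 3) in EV_stiff. The fitted difference was -2.42 (standard error 1.12, unadjusted p = 0.0328, edgeR adjusted p = 0.189). An exact permutation test of the ratios gave a two-sided p of 0.1, the smallest that 3 samples against 3 allow, and 0.46 after adjustment over the 23 hairpins. In pooled reads the minor arm was 5.37-fold less frequent relative to its partner in EV_stiff, with a counting interval of 2.05 to 16.7. At the share seen in EV_soft, 23.9 minor arm reads would fall among the EV_stiff reads of this hairpin, where 6 were counted. The difference was negative in all 6 fits that left out one library, from -2.73 to -2.04, with an adjusted p between 0.101 and 0.391 and an unadjusted p between 0.0221 and 0.0864. Without EV_soft replicate 1 or any 1 of the EV_stiff libraries the unadjusted p was above 0.05.

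**Figure D4:**
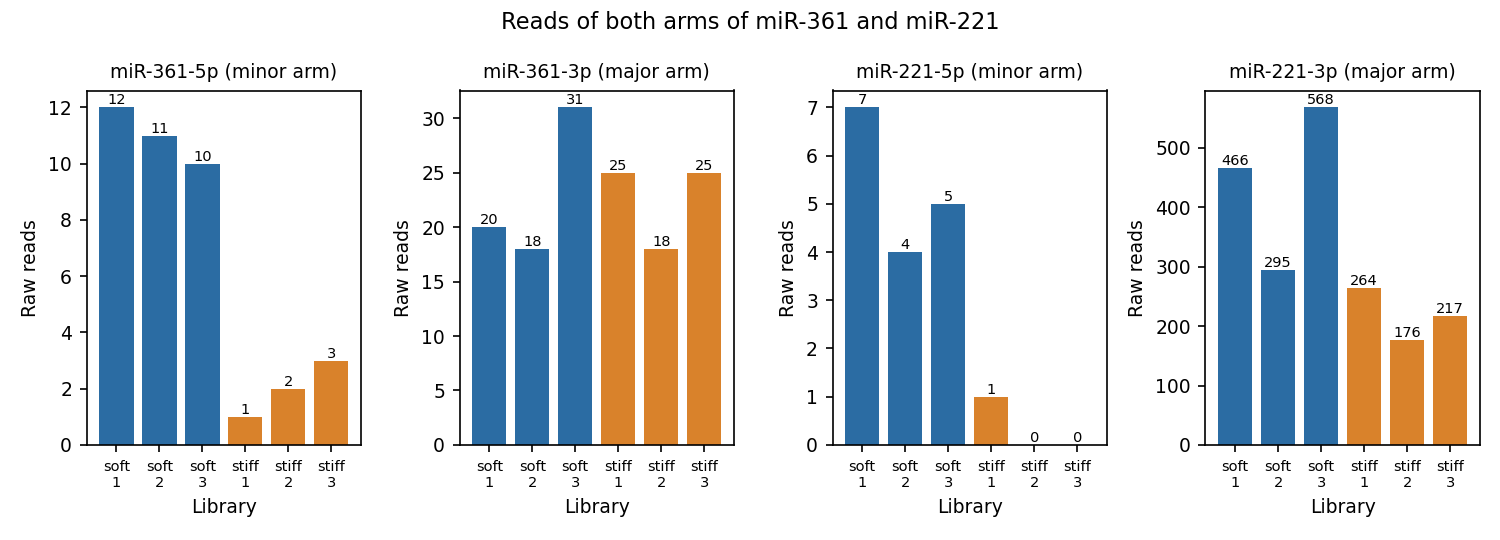
Raw reads (vertical axis, own scale in each panel) of both arms of miR-361 and miR-221 in each library, EV_soft in blue and EV_stiff in orange. miR-361-5p has 10 to 12 reads in EV_soft and 1 to 3 in EV_stiff beside 18 to 31 of miR-361-3p, and miR-221-5p has 4 to 7 in EV_soft and 0 or 1 in EV_stiff.

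The passenger arm of miR-221, a miRNA known for targeting the cell cycle inhibitor p27, had 16 reads in EV_soft and 1 in EV_stiff. It met the limit of 10 reads through EV_soft alone, so its low EV_stiff count is tied to how it was chosen. At the share seen in EV_soft, 7.83 minor arm reads would fall among the EV_stiff reads of this hairpin. miR-221-5p had 7, 4 and 5 reads in the EV_soft libraries and 1, 0 and 0 in the EV_stiff libraries. miR-221-3p had 466, 295 and 568 reads in EV_soft and 264, 176 and 217 in EV_stiff. The minor arm was counted in all EV_soft libraries and in 1 of 3 EV_stiff libraries. Its share was 1.48%, 1.34% and 0.873% in EV_soft and 0.377%, 0% and 0% in EV_stiff, and a count of 0 allowed up to 1.70% and 1.38% in the last 2, so that at this depth neither library alone can be set apart from EV_soft.

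The log2 ratio of the miR-221 arms was -6.23 ± 0.40 (SD, n = 3) in EV_soft and -8.23 ± 0.68 (SD, n = 3) in EV_stiff. With 2 EV_stiff counts at 0, the size of this difference is set by the number added to the reads. The difference in mean log2 ratio was -1.32 with 1 added, -3.59 with 0.1 added and -5.46 with 0.5 added to CPM. The fitted difference of -2.69 (standard error 1.01) had an unadjusted p of 0.00903 and an edgeR adjusted p of 0.0692, the smallest of the 18. In pooled reads the ratio was 7.91-fold lower, with a counting interval of 1.22 to 332, since it rests on 1 read in EV_stiff. That read was in EV_stiff replicate 1, and without this library the difference was -4.82 with an adjusted p of 0.0524. Over the other fits that left out one library the adjusted p reached 0.247.

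Of the 23 hairpins, 21.7% had log2 ratios that did not overlap between the groups. Among the 18 this held for miR-361 and miR-221, both lower in EV_stiff, and among the 5 left out for miR-423, miR-30a and miR-125a. Both miR-361-5p and miR-221-5p met the limit of 10 reads through EV_soft alone.

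let-7d-3p was the most abundant minor arm, with 466 reads. let-7 miRNAs are guides from the 5p arm that repress RAS and HMGA2, and let-7d is a hairpin whose 3p arm is also well recovered. let-7d-3p made up 17.4%, 33.0% and 20.1% of the hairpin's reads in the EV_soft libraries and 33.2%, 36.9% and 21.5% in the EV_stiff libraries. The groups overlapped, with EV_soft replicate 2 among the high libraries and EV_stiff replicate 3 among the low ones. The difference in log2 ratio was 0.54 (standard error 0.36, edgeR adjusted p = 0.516). With one library left out it ran from 0.30 (without EV_soft replicate 1) to 0.91 (without EV_soft replicate 2, unadjusted p of 0.0211, adjusted p of 0.13), and it was 0.32 without EV_stiff replicate 2 and 0.85 without EV_stiff replicate 3. In the fit of miRNA levels let-7d-3p was not called (log2 fold change 0.40, adjusted p = 0.413), and without EV_soft replicate 2 it was called as higher in EV_stiff (0.91, adjusted p = 0.0111). In the other fits that left out one library its log2 fold change was 0.18 to 0.62, with no call.

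The other let-7 passengers were scarce beside their very abundant guides. let-7a-3p had 17 reads against 11634 of let-7a-5p, and let-7b-3p had 15 against 32568 of let-7b-5p, the most abundant miRNA of the 36 arms. let-7a-5p comes from 3 loci and let-7a-3p from 2 of them, so this ratio does not belong to a single hairpin. let-7a-5p differs at 1 base from let-7f-5p (6640 reads), and let-7b-5p at 1 base from let-7c-5p (1427 reads). let-7d-5p differs from let-7a-5p at 2 bases. Reads of one of these major arms may have been counted as another. The fitted differences of let-7a and let-7b were -0.20 (standard error 1.00) and 0.01 (standard error 0.73).

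miR-22-5p, the passenger of miR-22, had the next most reads (163). It had 21, 34 and 62 reads in EV_soft and 17, 18 and 11 in EV_stiff, while miR-22-3p had 365, 220 and 443 in EV_soft and 170, 180 and 160 in EV_stiff. Both arms had fewer reads in the shallower EV_stiff libraries, and the ratios overlapped. EV_soft replicate 1 had the lowest share, 5.44%, and EV_soft replicate 2 the highest, 13.4%, with the EV_stiff libraries between them at 6.43% to 9.09%. The difference was -0.31 (standard error 0.41, edgeR adjusted p = 0.731).

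In the hairpin of miR-200a, a member of the family that represses ZEB1 and ZEB2, both arms had fewer reads in EV_stiff. miR-200a-5p had 27, 12 and 17 reads in EV_soft and 5, 7 and 2 in EV_stiff, and miR-200a-3p had 93, 63 and 143 in EV_soft and 18, 30 and 27 in EV_stiff. The share of the minor arm was 15.8% in EV_soft and 15.7% in EV_stiff over pooled reads. Its log2 ratio differed by -0.02 (standard error 0.43). miR-200a-3p was called as lower (log2 fold change -1.12, edgeR adjusted p = 0.0147). miR-200a-5p had too few reads to be tested for its level. In CPM its lowest EV_soft value, 254, lay just above its highest EV_stiff value, 252. With one library left out the difference in ratio ran from -0.36 to 0.42.

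miR-99b-3p, with 111 reads, had 22, 20 and 29 reads in EV_soft and 7, 19 and 14 in EV_stiff, beside 52, 68 and 93 and then 36, 27 and 35 reads of miR-99b-5p. The EV_stiff libraries held both the lowest and the highest ratio of the 6, and the difference was 0.24 (standard error 0.64). miR-28-5p had 8, 14 and 6 reads in EV_soft and 4, 6 and 11 in EV_stiff, beside between 29 and 69 reads of miR-28-3p, and the difference was 0.28 (standard error 0.76). Neither hairpin set the groups apart.

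The miR-23 and miR-27 hairpins lie in 2 paralogous clusters. miR-23a-5p had 2, 1 and 11 reads in EV_soft and 1, 6 and 9 in EV_stiff, and the groups overlapped. The difference was 1.22 (standard error 0.87, edgeR adjusted p = 0.516). In miR-23b the minor arm was the 3p arm, the one with the seed of miR-23a-3p. It had 8, 4 and 10 reads in EV_soft and 0, 6 and 2 in EV_stiff, beside 20, 3 and 6 and then 7, 5 and 2 reads of miR-23b-5p. The order of the arms changed between libraries, with the 3p arm ahead in EV_soft replicates 2 and 3 and in EV_stiff replicate 2. miR-23a-3p had 318 reads and differs from miR-23b-3p at 1 of 21 bases. Reads of one may have been counted as the other, and the place of miR-23b-3p as minor arm is uncertain.

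miR-27a-5p had 22 reads beside 10894 of miR-27a-3p, and miR-27b-5p had 12 beside 2937 of miR-27b-3p. Their differences were -0.66 (standard error 0.92) and 1.16 (standard error 0.86). With one library left out, miR-27a ran from -2.44 (without EV_stiff replicate 3) to -0.013 (without EV_stiff replicate 2), and miR-27b from 0.68 to 1.69. The 3p arms of both also differ at a single base of 21.

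Among the paralogs of the miR-17 cluster, miR-25-5p and miR-106b-5p come from 2 hairpins within an intron of MCM7, a replication licensing gene. miR-25-5p had 7, 4 and 12 reads in EV_soft and 3, 1 and 3 in EV_stiff, and its share was 0.556% to 2.06%, with a difference of -0.57 (standard error 0.64). miR-106b-5p, which carries the seed AAAGUGC of the miR-17 family, was here the minor arm, with 15 reads beside 284 of miR-106b-3p. It was at 0 in EV_stiff replicate 2 and had up to 6 reads elsewhere. miR-92b-5p, from an exon of the lncRNA THBS3-AS1, had 7, 3 and 6 reads in EV_soft and 5, 2 and 6 in EV_stiff, and its difference was 0.13 (standard error 0.69).

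In miR-574 and miR-21 most minor arm reads of EV_soft came from a single library. miR-574-3p had 0, 12 and 1 reads in EV_soft and 3, 2 and 2 in EV_stiff, and in EV_soft replicate 2 it exceeded miR-574-5p, which had 7 reads there. miR-21-3p had 2, 8 and 1 reads in EV_soft and 6, 0 and 2 in EV_stiff, beside 21551 reads of miR-21-5p in all. EV_soft replicate 2 had the most reads of both minor arms, as it had of let-7d-3p. The differences were -1.18 (standard error 1.36) for miR-574 and 0.81 (standard error 1.11) for miR-21. Both changed sign with 1 library left out. miR-574 was at 1.89 without EV_soft replicate 2, and miR-21 at -0.46 without EV_stiff replicate 1 and at 2.24 without EV_soft replicate 2. Limma gave -0.16 for miR-574.

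Levels were compared by edgeR's quasi-likelihood test across all 105 miRNAs that passed a filter on low counts, where a miRNA was called at an adjusted p of at most 0.05 and an absolute log2 fold change above 0.58. Only 3 of the 18 minor arms passed the filter (let-7d-3p, miR-22-5p and miR-99b-3p), and none was called at these thresholds or had an unadjusted p under 0.05. An arm that passed through the reads of one group alone would have had to differ, so no count over these 3 stands for all 18. Of the 18 major arms, 17 were tested and 2 were called, miR-200a-3p and miR-574-5p (log2 fold change 1.24, adjusted p = 0.0471). Without EV_soft replicate 3 miR-574-5p was still called (adjusted p = 0.0267). Without any other 1 library its adjusted p was 0.0528 to 0.12. It was called with DESeq2, the likelihood ratio test, and RLE or upper quartile scaling. It was not called with library size only, no filter, the replicate block or the same library size. miR-200a-3p was not called without EV_soft replicate 3 (adjusted p = 0.0593). Over all miRNAs tested 18.1% were called (7.62% lower and 10.5% higher in EV_stiff), 23.8% had an adjusted p of at most 0.05 whatever their fold change, and 40% had an unadjusted p under 0.05. At an adjusted p of at most 0.05 whatever the fold change, 4 major arms and 0 minor arms passed. With no filter the 18 minor arms had log2 fold changes from -2.95 for miR-221-5p to 1.03 for miR-23a-5p, and 0 were called. miR-361-5p was then at -1.69 (standard error 0.89, adjusted p = 0.471). Its partner miR-361-3p, which passed the filter, was at 0.82 (standard error 0.30, adjusted p = 0.0647). miR-361-3p was called with RLE or upper quartile scaling, the likelihood ratio test, and 10 counts in every library (adjusted p 0.0206 to 0.0491). With DESeq2, library size only, no filter, the replicate block or any 1 library left out it was not (adjusted p 0.0564 to 0.483). Scaled with the same library size for all libraries, without correction for depth, it was at -0.02. The CPM of both arms were without overlap between EV_soft and EV_stiff. The same was true of 3 of the 18 minor arms (miR-200a-5p, miR-361-5p and miR-221-5p, all lower in EV_stiff), none of which passed the filter. It was true of 47.6% of the 105 miRNAs that passed, a set with more reads. Whether fewer vesicles carried an arm or each carried less of it cannot be told apart in these libraries.

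By family, the minor arms comprised 3 of 9 listed let-7 hairpins, 4 of 5 hairpins of the miR-23, miR-27 and miR-24 clusters, and 2 of 13 hairpins of the miR-17 cluster and its paralogs. The ratio was higher in EV_stiff for let-7d and let-7b and lower for let-7a by the mean log2 ratios, and 2 of the 4 miR-23 and miR-27 hairpins lay on each side. None of the 4 miR-181 hairpins, 3 miR-29 hairpins or 12 hairpins of blood, stroma and endothelium was among the 18.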

How the data were processed

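The authors deposited raw read counts of 471 miRNA names in 6 small RNA libraries, after quality control with exceRpt and counting of RefSeq features. The submitters' processing notes name hg38. The aligner is not given in the sources used here, and whether duplicates were collapsed is not stated either. The labels give a gel selection for miRNA-sized inserts. Samples were grouped by their titles. No pair of libraries agreed within sampling noise (chi-square per degree of freedom at least 3.40).

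Members and hairpin lists were chosen with earlier results of these data known. Arm ratios used reads plus 0.5. The ratio was fitted in R 4.3.3 with edgeR 4.0.16 (quasi-likelihood, 1 value per arm and library, with a term for each library), with limma 3.58.1 and DESeq2 1.42.0 as alternatives. miRNA levels were fitted with filterByExpr and TMM. All of these fits share information on spread across hairpins or miRNAs, so a p-value does not rest on the values of 1 hairpin alone. A standard error is the log2 estimate divided by the square root of F. Shares have exact (Clopper-Pearson) 95% intervals, and pooled ratios exact conditional intervals. The procedures were run on simulated data, but how often a true change would be called at these read counts is not given here. Named were hairpins with an unadjusted ratio p under 0.05, the 10 with the most minor arm reads, those with non-overlapping ratios and 30 or more reads, those with a log2 ratio above -1, and those at the read limit. Others were named after their values were seen. Host genes came from GENCODE 44. Alternatives were other tests, scalings, filters, pseudocounts, a replicate block and leaving out each library.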

Additional observations from a re-analysis of the deposited data

How the results depend on the processing

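No member was called for its arm ratio in any of the 10 alternatives, which were limma, DESeq2, a replicate block, a minimum of 60 reads per arm and leaving out each library. The median ratio difference of 0.05 lay between -0.20 and 0.26 with one library left out. The difference in pooled share of 0.05 percentage points then lay between -0.06 and 0.25. With other pseudocounts the median was 0.11 (counts plus 1), -0.05 (counts plus 0.1) and -0.26 (CPM plus 0.5). Without let-7d the difference in pooled share was -0.13 percentage points. For minor arm levels, 0 calls became 1 with equal library sizes (miR-22-5p, log2 fold change -1.34) and ranged from 0 to 1 with one library left out, the 1 being let-7d-3p without EV_soft replicate 2. With one library left out, the ratio difference changed sign for miR-99b (-0.22 to 0.66), miR-200a (-0.36 to 0.42), miR-28 (-0.11 to 0.69), miR-23b (-1.77 to 0.43), miR-92b (-0.29 to 0.64), miR-574 (-2.27 to 1.89), miR-21 (-0.46 to 2.24), miR-106b (-0.61 to 1.72), let-7a (-0.60 to 0.16) and let-7b (-0.74 to 0.57), as did the level of miR-99b-3p (-0.34 to 0.33). It kept its sign for let-7d (0.30 to 0.91), miR-22 (-0.71 to -0.091), miR-361 (-2.73 to -2.04), miR-23a (0.71 to 2.22), miR-25 (-0.86 to -0.22), miR-27a (-2.44 to -0.013), miR-27b (0.68 to 1.69) and miR-221 (-4.82 to -2.23). Other sign changes of the ratio difference came with counts plus 1 for miR-200a (0.0691) and let-7a (0.0377), with counts plus 0.1 for miR-574 (0.54) and miR-106b (-0.0978), and with CPM plus 0.5 for miR-27b (-0.68), miR-574 (1.22), miR-21 (-0.90) and miR-106b (-0.98). Levels changed sign for let-7d-3p with the same library size (-0.36) and for miR-99b-3p with library size only (-0.0687), no filter (-0.0646), the replicate block (-0.0433) and the same library size (-0.82). The cause was not tested. Equal library sizes moved the median of all miRNAs to -0.89 and gave 57 calls, all lower, against 19 (11 higher and 8 lower). Library size only gave 8 higher and 11 lower. Replicate numbers are shared by the groups, but same-numbered libraries did not deviate together in levels (correlations of -0.13, 0.13 and -0.03 over 105 miRNAs). For log2 arm ratios the correlations were 0.18, -0.05 and 0.16 over 23 hairpins. Those of differently numbered libraries ran from -0.29 to 0.18. With the replicate block miR-361 was at -2.41 (adjusted p = 0.169) and miR-221 at -2.76 (adjusted p = 0.166), with 0 of 18 called. The limit of 60 reads left 4 of the 18 hairpins, and 10 counts in every library left 2 minor arms to test, so depth limits most of these comparisons.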
